A study of Zea mays with 24 samples.

Results

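The 85 transcripts described here were among the most abundant of the lit mid-leaf in seedlings of maize. Genes such as pep1 and pdk1 could not enter, as too much data kept them from being tested at +4. A gene was taken when the mean of both groups of the deposited table for segment +4 was at least 1000 FPKM (fragments per kilobase, a level corrected for gene length and library size) and the authors had tested it. Of the 17969 genes tested there, 92 reached that level, and 7 of these were left out because they stood on a list of 9 genes set aside by name, which includes NADP-malic enzyme and Rubisco small subunit genes. The remaining 85, of 39634 genes listed in all, were chosen by their level at +4, so the values of that segment are given as a description with no test, and only segments -4, -1 and +10 are read against the authors' tests.

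A green leaf spends much of its messenger RNA on a small number of nuclear genes for photosynthesis. Light-harvesting chlorophyll proteins gather light for photosystem II and photosystem I, electron carriers such as ferredoxin pass the electrons on to make NADPH, and the chloroplast ATP synthase makes ATP. The Calvin-Benson cycle spends both on fixing carbon. Maize is a C4 plant, in which mesophyll cells fix carbon first into acids with 4 carbons and the bundle sheath around the veins releases it again for Rubisco. Malate enters the bundle sheath chloroplast through a dicarboxylate transporter. Along a growing maize blade the base is young sink tissue and the tip is the oldest part, so these genes normally come on between base and mid-blade.

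The plants were of the W22 inbred, 9 days old, either wild type or labelled dct2-1, for an allele of pDCT2, which encodes a plastid dicarboxylate transporter. Segments were named by their position from the ligule of leaf 2, where blade meets sheath: -4 was the base of the blade and not yet photosynthetic, -1 the zone turning from sink to source, +4 exposed mid-leaf and +10 the tip. The labels give 3 replicates for each genotype and segment, each a pool of 15 plants, 24 libraries in 8 groups, and only this 1 mutant allele. Plants of both genotypes shared a chamber regime of 16 h light (500 umol m-2 s-1), 28 degrees C and 40% humidity. Whether replicates came from separate sowings is not said, so p-values measure only the spread between these pools.

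All levels, test results and flags below come from the authors' deposited tables, 1 per segment, made with Cuffdiff. Each table gives 1 pooled FPKM value for a group q1 and a group q2, without values for single libraries and without saying which genotype is which. Directions are therefore given as q2 against q1. pDCT2 itself stood at 37.8, 657, 633 and 310.4 FPKM in q1 and at 7.84, 12.5, 8.91 and 9.50 FPKM in q2, in the order -4, -1, +4 and +10, and this was not used to label the groups. Where segments are set side by side, q1 is assumed to name 1 genotype throughout. No SD between replicates can be given, read depth is unknown, and the error written after a log2 change is the standard error implied by the deposited statistic. A call means an adjusted p under 0.05 in the authors' test over the whole table. Intervals built from the implied error can reach across 0 for genes that the authors called, since Cuffdiff's p is smaller than a normal p from that error. Whether fewer cells or less RNA per cell lies behind a level cannot be told apart in such bulk samples.

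Along the leaf the 85 genes were higher in q2 at the base, close to level at -1, and lower in q2 in both exposed segments. At segment -4, 58 of the 85 rose and 3 fell, or 68.2% and 3.53% of them, while 15.2% of all 20174 tested genes were called higher and 12.7% lower (27.9% called in all). Their median log2 change there was 0.57, against 0.02 for all tested genes. At segment -1 only 1 rose and 2 fell, where 9.48% of tested genes were called higher and 8.22% lower (17.7% in all). The median log2 change was -0.19, and 81 of the 85 lay within 0.5 of no change. At segment +10, 68 of the 85 fell and 3 rose (80% and 3.53%), where 22.3% of tested genes were called lower and 21.5% higher (43.8% in all). The median log2 change at the tip was -0.88, against 0.02 for all tested genes. At +4, the segment used to choose the genes, 70 carried the authors' call as lower and 5 as higher, with a median of -0.96. Calls over all tested genes at +4 were 22.8% lower and 19.5% higher (42.2% in all). At +4, 82 of the 85 reached 1000 FPKM in q1, 62 in q2 and 59 in both. The rest passed the rule through 1 group alone, so a difference at +4 is in part built in for them. Among these, cab-m1, lhcb3, lox10 and bss1 were under 1000 FPKM in q2, and GRMZM2G027478, GRMZM2G001696 and GRMZM5G828630 in q1.

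**Figure D1:**
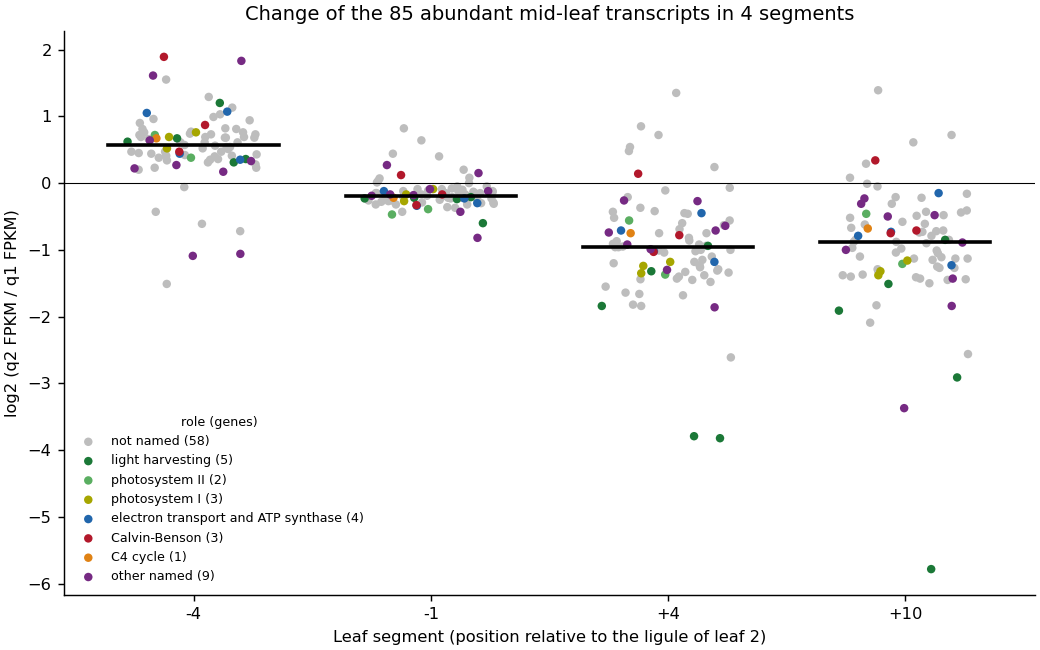
Each point is 1 of the 85 genes, with the log2 ratio of q2 to q1 FPKM on the vertical axis and the leaf segment on the horizontal axis. Black bars are medians (0.57, -0.19, -0.96 and -0.88), colours give the role read from the gene name, and sideways spread within a segment has no meaning.

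A rise at -4 and a fall at +10 came together in 53 of the 85 genes, and in 4.49% of the 14916 genes tested in both segments. The opposite pair of calls came in 2 of the 85, and in 2.09% of those genes. As a description that includes the segment used for the choice, 50 of the 85 were called higher at -4, not at -1, and lower at +4 and +10, and another 13 were called only at +4 and +10, as lower in both. No gene was called higher in all 4 segments, and only lox10 was called lower in all 4. 4 genes carried no call in any segment.

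The change can also be read as a share of all transcripts. At segment +4 the 85 genes summed to 340989 FPKM in q1 and 166325 FPKM in q2, which was 40.9% and 26.8% of the FPKM of all genes with a usable level. The genes outside the set, among them the 7 left out by name, summed to 492537 FPKM in q1 and 453424 FPKM in q2 at +4. The 85 genes thus held 81.7% of the gap between the groups in the segment whose levels chose them. These sums leave out 3 genes without a usable level at +4, among them pep1 and pdk1, which had too much data. The 40.9% and 26.8% are therefore upper limits. In the other segments no gene was left out, so shares and gaps at +4 are not like for like with those of other segments. The genes outside the set summed to 584522 FPKM in q1 and 527102 FPKM in q2 at +10. At +10 the 85 genes held 68.9% of the gap and at -1 55.5%. At -4 their sum was higher in q2, 65442 against 61794 FPKM, while the sum over all genes was lower, 752339 against 775209 FPKM. At +10 the 85 genes held 31.8% of the sum in q1 and 21.6% in q2. At -1 their share was 28.2% in q1 and 26.2% in q2, and at -4 it was 7.97% and 8.70%. The sums at -4 rest in large part on 1 gene, GRMZM5G892124, which went against most of the set there. It held 28339 of the 61794 FPKM in q1 and 17215 of the 65442 FPKM in q2.

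**Figure D2:**
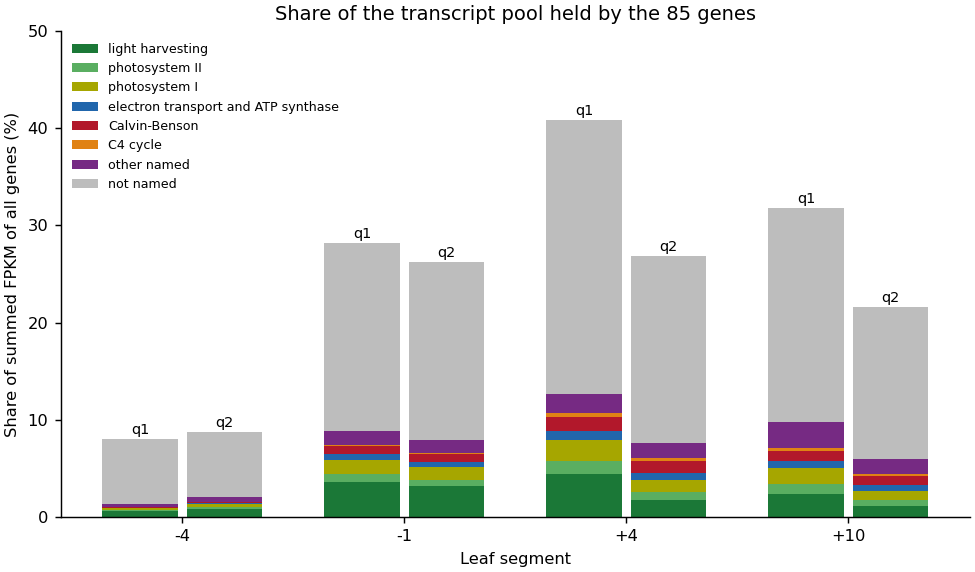
Bars show the percent of the summed FPKM of all genes with a usable level held by the 85 genes, for group q1 and group q2 in each segment, stacked by role. The bars start at 0, and the q2 bar is lower than the q1 bar at -1 (26.2% against 28.2%), +4 (26.8% against 40.9%) and +10 (21.6% against 31.8%).

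Because the sums differ, the size of the falls depends on the scale. Scaling both groups to the same FPKM sum moved every log2 change by 0.43 at +4 and by 0.35 at +10, and with it the median of all tested genes to 0.44 and 0.37. On that scale the median of the 85 genes was -0.53 at +4 and -0.53 at +10, and 71 and 70 of the genes stayed below 0. The distance of the 85 genes from the median of all tested genes is the same on either scale. At -4 the same scaling left 78 genes above 0, with a median of 0.62. The +4 sums lack the genes without a usable level, pep1 and pdk1 among them. The shift at +4 thus rests on a different set of genes from the others.

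In q1 the levels followed the greening of the blade. The median level was 259 FPKM at -4, 1771 at -1, 3239 at +4 and 2565 at +10. In q2 the medians were 373, 1537, 1536 and 1359 FPKM, so the level reached at -1 was not passed further up. Between -1 and +4 the level was higher at +4 in 78 of 85 genes in q1 but in 39 of 85 in q2. The tables were normalised separately, so these steps between segments are descriptions and were not tested. Since the genes were chosen for a high level at +4, a higher level there than in other segments is in part built in.

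**Figure D3:**
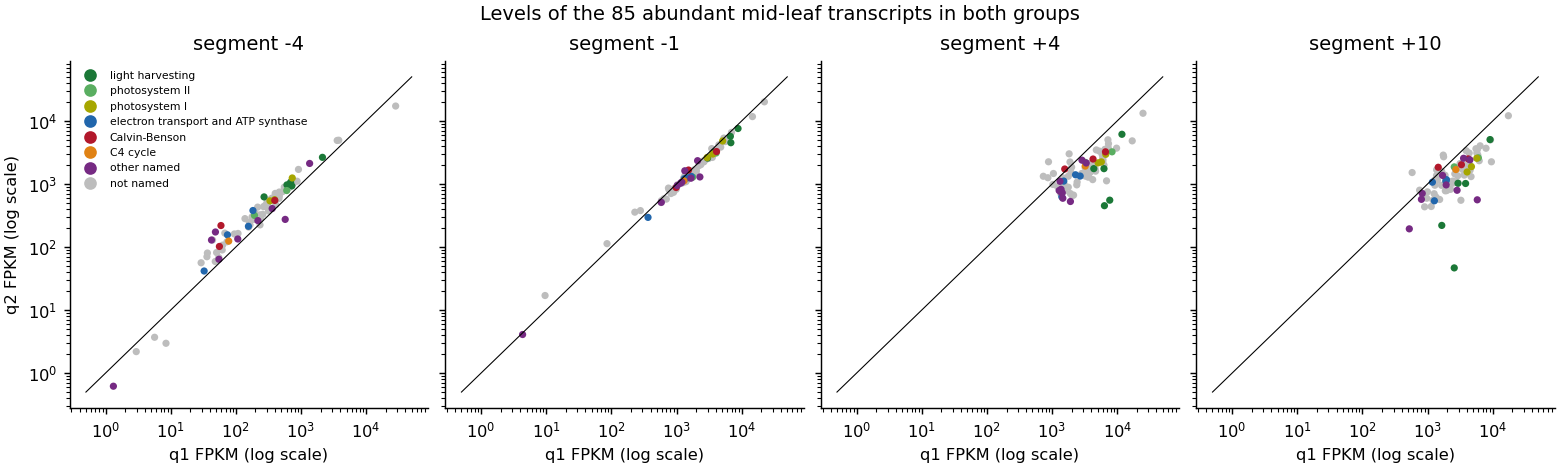
Each panel plots q2 FPKM against q1 FPKM for the 85 genes in 1 segment, both on log axes, with the line of equal levels. Most points lie above the line at -4 (78 of 85), and most lie below it at +4 (78 of 85) and +10 (79 of 85).

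A reference table of RefSeq genes listed 75 of the 85 identifiers but gave a gene name to only 27. These were sorted into roles by name: 5 light-harvesting genes, 2 of photosystem II, 3 of photosystem I, 4 of electron transport and ATP synthase, 3 of the Calvin-Benson cycle, 1 tied to the C4 cycle and 9 others. The other 58 have no name in it and are described by their values.

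Light-harvesting genes had the lowest median of the named roles at +10. All 5 fell at +10, with a median log2 change of -1.91, and all 5 were lower at +4, with a median of -1.84. lhcb3 (GRMZM2G155216, chromosome 8, 70796778 to 70798941 by the coordinates of the tables, whose build is not stated) encodes an antenna protein of photosystem II. It stood at 723, 6817, 6364 and 1651 FPKM in q1 and at 930.2, 4509, 452 and 220.0 FPKM in q2, from -4 to +10. q2 was slightly the higher group at the base and far the lower one from mid-leaf on. lhcb3 was also 1 of the 2 genes of the set that fell at -1, by 0.60 ± 0.35 (adjusted p = 0.0193 by Cuffdiff, run by the authors), and its fall at +10 was 7.51-fold (-2.91 ± 0.30).

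cab-m1 (GRMZM2G351977, chromosome 8, 141641841 to 141643727), a chlorophyll a/b-binding protein gene, changed most. Its q1 levels were 271, 6699, 7679 and 2565 FPKM, and its q2 levels 623, 5684, 553 and 46.6 FPKM. The 2 groups were close at -1, lay furthest apart in FPKM at +4 and had the largest ratio at the tip. cab-m1 rose by 1.20 ± 0.29 at -4 and was 55.1-fold lower in q2 at +10 (-5.78 ± 0.31), with adjusted p = 0.000492 and 0.000259, the smallest that the authors' deposited tables give (Cuffdiff).

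The other 3 antenna genes fell less. lhcb6, which encodes the minor antenna protein CP24, stood at 6262 and 1748 FPKM at +4 and at 3830.4 and 1017 FPKM at +10, q1 first. It rose by 0.62 ± 0.31 at -4 and fell by 1.91 ± 0.31 at +10. lhcb5, which encodes the minor antenna protein CP26, rose by 0.67 ± 0.35 at -4 and fell by 1.51 ± 0.34 at +10. lhcb7 is also listed as Cab-m7 and LHCP. It was the most abundant named gene of the 85, at 11810.0 FPKM in q1 and 6136 in q2 at +4. Its change was the smallest of the 5 at the tip, -0.85 ± 0.46, from 9085 to 5055 FPKM, and its 0.31 ± 0.51 at -4 did not pass. Genes of this family are similar in sequence, so their values are uncertain as long as the counting of shared reads is unknown.

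Both photosystem II genes fell at +10. cp29 is named for the minor antenna protein CP29 and was placed here by its listed names alone. The minor antenna genes lhcb5 and lhcb6 were counted under light harvesting, so the medians of both roles depend on this sorting. cp29 stood at 604, 4047, 8329.5 and 6016 FPKM in q1 and at 786, 3095, 3234 and 2597 FPKM in q2. The changes at -4 (0.38 ± 0.30) and -1 (-0.39 ± 0.34) were alike in size and did not pass, and cp29 fell by 1.21 ± 0.37 at +10. psbs1, also listed as CP22, encodes the PsbS protein needed for the heat loss that protects the leaf from too much light. It rose by 0.72 ± 0.27 at -4 and fell by only 0.46 ± 0.33 at +10 (adjusted p = 0.037, by the authors with Cuffdiff), from 2564 to 1866 FPKM.

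The 3 photosystem I genes moved nearly as 1. psan1 and psah1 encode small subunits, and psa6 is named for the same complex. All 3 rose at -4, by 0.76 ± 0.30, 0.52 ± 0.29 and 0.69 ± 0.28 in that order, and all 3 fell at +10, by 1.16 ± 0.33, 1.38 ± 0.34 and 1.32 ± 0.34. psan1 stood at 734, 5098, 6669 and 5689 FPKM in q1 and 1244, 4804, 2952 and 2554 FPKM in q2. Its groups were nearly level at -1 and more than 2-fold apart in both exposed segments. At +4 the log2 changes of the 3 genes lay between -1.35 and -1.18. The tables give psa6 the same locus as GRMZM2G012324, and how reads were split between them is unknown.

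Of the 4 electron transport genes 3 rose at -4 and 3 fell at +10, and all 4 carried the call as lower at +4. L-FNRII, a leaf ferredoxin-NADP reductase gene, stood at 1411 and 625 FPKM at +4 and at 1272 and 540.4 FPKM at +10, q1 first, and fell by 1.23 ± 0.30 at +10. FDX1, a leaf ferredoxin gene, rose by 1.05 ± 0.25 at -4 and fell by 0.79 ± 0.29 at +10. fdx2, a second ferredoxin gene 32015 bases from FDX1 on chromosome 6, rose by the like amount at -4, 1.07 ± 0.25. At +4 it stood at 1513 and 1110.0 FPKM, lower by the authors' call (-0.45 ± 0.31). At +10 fdx2 stood at 1185 and 1067 FPKM and its change of -0.15 ± 0.28 did not pass the test, with an interval of 95% from -0.69 to 0.39. With the same FPKM sum in both groups, fdx2 was at -0.02 at +4 and turned to 0.20 at +10. Whether the ferredoxin genes differ in their change was not tested. GRMZM2G048907, known only by a clone name that mentions atpc, rose by 0.44 ± 0.27 at -4 and fell by 0.73 ± 0.33 at +10.

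Of the named Calvin-Benson genes, gpa1 and gpb1 fell at +10, and the change of the Rubisco activase gene did not pass the test. gpa1 and gpb1 encode subunits of the chloroplast glyceraldehyde-3-phosphate dehydrogenase. gpa1 stood at 396, 4108, 6608 and 4203 FPKM in q1 and 548, 3267, 3236 and 2498 FPKM in q2. It rose by 0.47 ± 0.31 at the base and fell by 0.75 ± 0.38 at the tip. gpb1 rose by 0.87 ± 0.25 at -4 and fell by 0.71 ± 0.38 at +10, and its +4 levels were 4254 and 2485 FPKM.

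rca1 (GRMZM2G162200, chromosome 4, 693735 to 696087) encodes Rubisco activase, which frees Rubisco from bound sugar phosphates. It stood at 59.1, 1527, 1566 and 1457 FPKM in q1 and 219, 1662, 1726 and 1839 FPKM in q2. q2 was the higher group in every segment, and by ratio far the most at the base. rca1 rose by 1.89 ± 0.27 at -4, the largest rise of the 85 genes there. Its changes at -1 and +10, 0.12 ± 0.34 and 0.34 ± 0.33, did not pass the test, and the interval of 95% at +10 ran from -0.31 to 0.98. adk1, an adenylate kinase gene grouped with the C4 cycle because that enzyme recycles the AMP made by pyruvate phosphate dikinase, rose by 0.67 ± 0.24 at -4 and fell by 0.68 ± 0.33 at +10, where it stood at 2718 and 1692 FPKM.

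**Figure D4:**
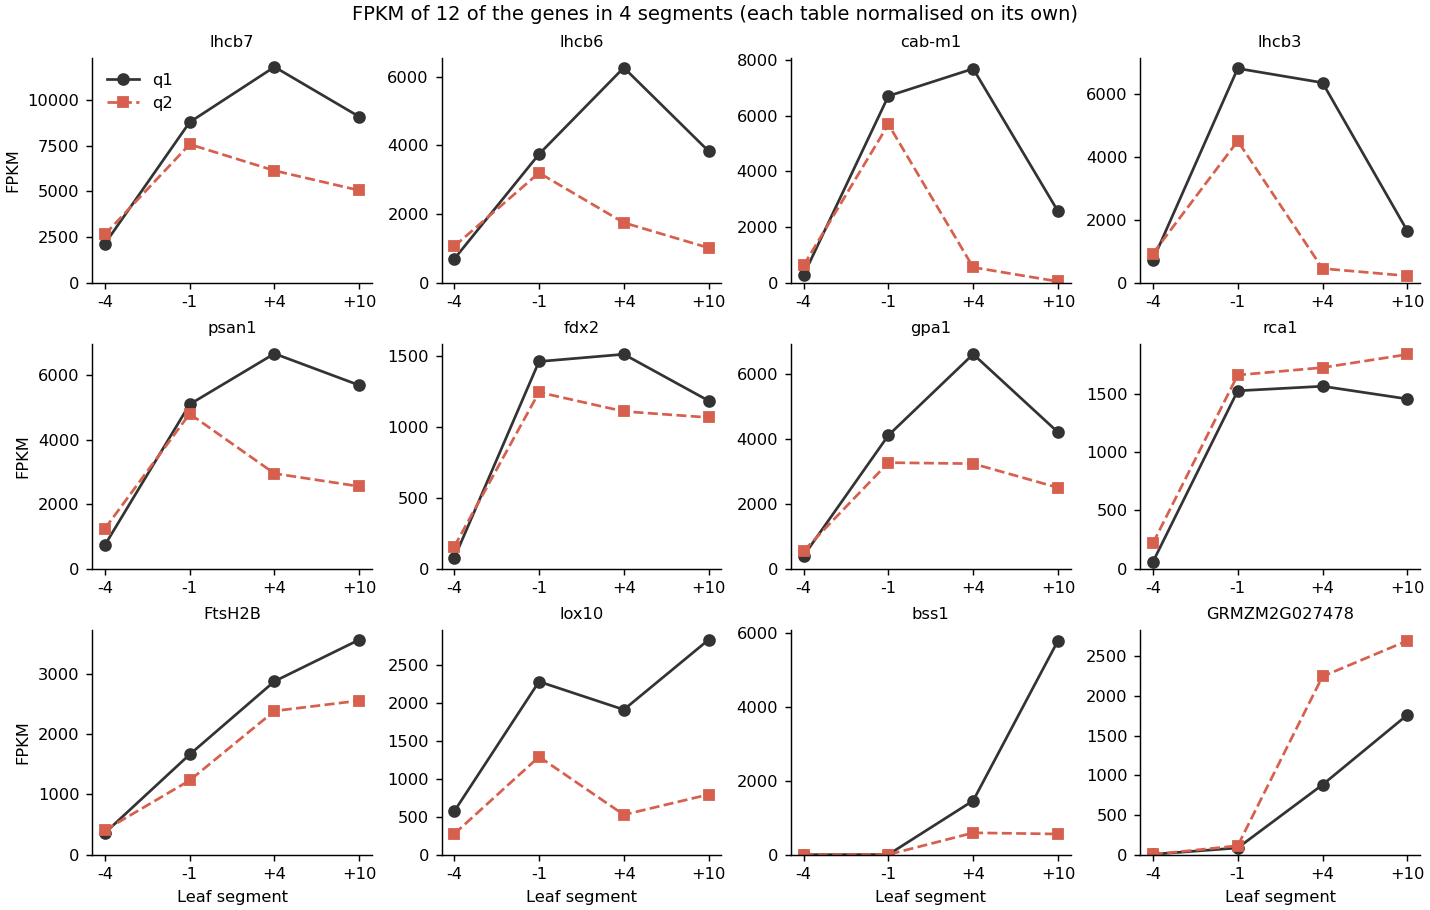
FPKM of 12 of the genes by leaf segment, q1 as filled circles and q2 as squares, each panel with its own vertical axis from 0. The q1 and q2 lines of cab-m1 and lhcb3 part after -1, and those of fdx2 end close together at the tip. The q2 line lies above q1 in all 4 segments for rca1 and below it in all 4 for lox10.

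Among the 9 other named genes 6 fell and 0 rose at +10. lox10 (GRMZM2G015419, chromosome 4, 233625685 to 233629448), a 13-lipoxygenase gene for green leaf volatiles, stood at 572, 2283, 1913 and 2835 FPKM in q1 and 274, 1292, 527 and 794 FPKM in q2. It was lower in q2 at every position and was the second gene that fell at -1. lox10 fell by 1.06 ± 0.35 at -4, 0.82 ± 0.35 at -1 and 1.84 ± 0.40 at +10, each at the smallest adjusted p of its table, as given by the authors.

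bss1 was low in the young segments, at 1.32 and 0.619 FPKM at -4 and at 4.34 and 4.09 FPKM at -1, q1 first. At +4 it stood at 1462 and 593 FPKM, and at the tip q1 climbed to 5787 FPKM while q2 stayed at 560.3. The fall of bss1 at +10 was 10.3-fold, -3.37 ± 0.31. Only cab-m1 fell further there.

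glu2, a beta-glucosidase gene, crossed over along the leaf. It stood at 48.6, 2104, 1285 and 524 FPKM in q1 and 173, 2339.5, 785 and 194 FPKM in q2. It rose by 1.83 ± 0.25 at -4 and fell by 1.43 ± 0.28 at +10. shbp1 also rose at -4, by 1.61 ± 0.28, but its -0.23 ± 0.26 at the tip did not pass and turned to 0.12 with equal FPKM sums. trm1, a thioredoxin m gene of the chloroplast, fell by 1.00 ± 0.30 at +10, ris2 by 0.89 ± 0.35 and ppp1 by 0.50 ± 0.26, and none of these 3 passed the test at -4.

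The remaining 2 named genes were not called in any segment. sam2, an S-adenosylmethionine synthetase gene, stood at 1356, 1339, 1323 and 1698 FPKM in q1 and 2115, 1618, 1102 and 1365 FPKM in q2, a nearly even level along the leaf in q1. Its change at +10, -0.31 ± 0.34, has an interval of 95% from -0.98 to 0.35, and turned to 0.03 with equal FPKM sums. FtsH2B, a gene of the thylakoid protease that clears damaged photosystem II protein, stood at 2877 and 2385 FPKM at +4 and 3567 and 2556 FPKM at +10. Its implied error was 1.88 at +10, so changes from -4.16 to 3.20 are within its interval of 95%. FtsH2B and GRMZM2G039996 were the 2 genes whose implied error passed 1 in all 4 tables, and GRMZM2G039996 carried no call although it stood at 4201 and 1171 FPKM at +4.

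In the exposed blade, 10 of the 85 lay within 0.5 of no change at both +4 and +10, namely FtsH2B, rca1, fdx2, sam2 and 6 without a name, and 5 of the 10 also did so at -4 and -1. GRMZM2G162233, the least abundant gene of the set, stood at 1029 and 982 FPKM at +4 and at 1291 and 1153 FPKM at +10. Its change at +10, -0.16 ± 0.28, did not pass, with an interval of 95% from -0.71 to 0.38. In all, 14 genes lay within 0.5 at +4 and 20 at +10, 16.5% and 23.5% of the set, against 48.6% and 54.3% of all tested genes with a log2 change. At -4 the number was 31 of 85, or 36.5% against 71.5%. With equal FPKM sums the numbers at +4 and +10 were 31 and 35. A small change is not a level shown to be held. Of the 10, 4 were called lower at +4 and 1 higher, and 0 were called at +10, while the interval of 95% of FtsH2B at +4 ran from -4.22 to 3.68. rca1 was at 0.57 and 0.69 at +4 and +10 with equal FPKM sums, outside 0.5 in both.

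Within the 85, the pair with the highest mean levels at +4 has no name here. AC216353.2_FG005 (chromosome 5, 210593957 to 210594236) stood at 24874 and 13224 FPKM at +4 and at 17371 and 12087 at +10. It rose by 0.45 ± 0.24 at -4 and fell by 0.52 ± 0.26 at +10. Its locus spans 280 bases, the shortest of the set, and lies 196 bases from ppp1. AC207722.2_FG009 (chromosome 7, 147057062 to 147058228) stood at 16990.3 and 4825 FPKM at +4 and fell by 2.09 ± 0.43 at +10, from 9538 to 2246 FPKM. GRMZM2G092311 and GRMZM2G071450 were next among the unnamed genes. They rose by 0.61 ± 0.32 and 0.90 ± 0.34 at -4 and fell by 1.41 ± 0.36 and 0.67 ± 0.36 at +10. GRMZM2G057281 had the lowest log2 change of the unnamed genes at +4, -2.61, from 6857 to 1120.4 FPKM, and fell by 2.56 ± 0.31 at +10, while its 0.43 ± 0.33 at -4 did not pass.

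As a body, the 58 genes without a name gave 42 rises and 2 falls at -4, 1 rise and 0 falls at -1, and 3 rises and 46 falls at +10. Their median log2 changes were 0.57, -0.17, -0.96 and -0.88 from base to tip, close to those of all 85. Roles could not be read for them here, so the counts by role cover 27 of the 85 genes.

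A small group went the other way in the exposed blade. None of the 5 genes called higher in q2 at +4 has a name here, and 3 of them, described last, were picked after their values were seen. GRMZM2G027478 (chromosome 3, 184278113 to 184282019) stood at 5.66, 85.7, 882 and 1762 FPKM in q1 and 3.70, 113, 2247 and 2697 FPKM in q2. Both groups climbed toward the tip, q2 more steeply, and the gene rose by 0.61 ± 0.30 at +10. GRMZM5G828630 stood at 8.47, 9.60, 734 and 579 FPKM in q1 and 2.97, 17.0, 1324 and 1517 FPKM in q2. It fell by 1.51 ± 1.16 at -4, at low levels, and rose by 1.39 ± 0.26 at +10.

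GRMZM2G057186 was the 1 gene of the set that rose at -1, by 0.64 ± 0.42, and its -0.21 ± 0.44 at +10 did not pass. GRMZM2G106061 and GRMZM2G001696, at 0.48 ± 0.34 and 0.54 ± 0.34 at +4, had values of 0.29 ± 0.33 and -0.01 ± 0.34 at the tip, which did not pass. GRMZM5G892124, also picked by its values, was the most abundant of the set at the base and followed a course of its own, with 28339, 5581, 1885 and 1739 FPKM in q1 and 17215, 4696, 2232 and 2869 FPKM in q2. It declined toward the tip in q1, fell by 0.72 ± 0.50 at -4 and rose by 0.72 ± 0.49 at +10. GRMZM5G892124 and GRMZM5G828630 were the 2 genes that fell at -4 and rose at +10.

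Whether base and tip differed in their change was tested gene by gene. The log2 change was more negative at +10 than at -4 in 59 of the 85 genes at an adjusted p under 0.05 over 14902 genes (normal test on the implied errors), and more positive in 0. Among all genes with that test 6.63% were more negative at +10 and 2.64% more positive. The median difference was -1.59 for the 85 genes and -0.06 for all genes. By role, the 59 held 4 of 5 light-harvesting genes, 3 of 3 photosystem I genes, 3 of 4 electron transport genes, 2 of 3 Calvin-Benson genes and 1 of 2 photosystem II genes, besides adk1, 3 of the 9 other named genes and 42 of the 58 without a name. The Calvin-Benson genes included rca1, whose change went from 1.89 to 0.34 without a fall at the tip. The test is a normal approximation on 3 pooled samples a group and takes the errors of both tables as independent, although the labels do not say whether segments came from the same plants.

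Genes that were lower at +4 were in large part those lower at +10. Across the 85 genes the log2 changes of +4 and +10 had Pearson's r = 0.87 and Spearman's rho = 0.89, and r = 0.85 without cab-m1 and lhcb3. The size of the rise at -4 did not follow the size of the fall at +10, with r = -0.11 and rho = -0.02. The points are genes that share libraries and were chosen by their level, so these values are descriptions across genes and carry no p.

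By their medians at +4 and +10, other abundant genes moved in the same direction, less far. The genes outside the set in this paragraph also leave out the 9 set aside by name. Those between 500 and 1000 FPKM at +4 had a median log2 change of -0.55 there (92 genes). Those between 100 and 500 FPKM had -0.12 (805 genes). At +10, 17 genes of at least 1000 FPKM stood outside the set and had a median of -0.44, with 8 falls and 3 rises, while 71 of the 85 were that abundant and had -0.88. At -4 the direction differed. The 35 genes of at least 1000 FPKM outside the set had a median of -0.34 with 13 falls and 4 rises, against 0.41 with 2 rises and 1 fall for the 6 genes of the set at that level. At -1 the medians were alike, -0.23 for 17 such genes outside and -0.21 for 64 of the set. With the genes set aside by name added back to the set, 65 of 92 were called higher at -4, against 58 of the 85 alone. Called lower were 74 of 92 against 70 of 85 at +4, and 70 of 92 against 68 of 85 at +10. Most of the genes added back were thus not called lower at +10. These contrasts are counts and medians and were not tested.

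Near the threshold the values ran on without a gap. Just inside stood bss1, L-FNRII and GRMZM2G162233, with means of 1028, 1018 and 1005 FPKM at +4 and log2 changes of -1.30, -1.18 and -0.07. Just outside stood lhcb4, kin1 and gtr1, with means of 989, 985 and 966 FPKM and log2 changes of -0.24, -0.13 and -0.53.

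The 85 genes lay on all 10 chromosomes and none on the plastid or mitochondrial genome. Chromosomes 6 and 7 held 12 each, or 14.1% of the set, against 8.29% and 7.86% of all tested genes. Chromosomes 1, 4 and 9 held 10.6%, 5.88% and 3.53%, against 15.8%, 10% and 7.52%. These chromosomes were picked by their counts, and the differences were not tested. The loci of the set were shorter than usual, with a median of 1845 bases against 3881 over all tested genes, and ranged from 280 to 8602 bases. In 7 cases the deposited locus is also that of another gene, among them psa6, trm1 and GRMZM2G027478. The partner genes were far less abundant at +4, the highest being GRMZM2G012324 beside psa6 with 194 and 119 FPKM.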

How the data were processed

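Alignment was with GSNAP and the comparison with Cuffdiff, per the submitters' processing notes, which give no version, build or annotation. Each of the 4 deposited tables lists 39634 genes. The value columns are taken as FPKM because the file headers have Cuffdiff's layout, and the authors pooled replicates into 1 FPKM per group, q1 and q2. The authors also deposited a test statistic (a score), a p-value and an adjusted p-value. At +4, 2 genes (pep1 and pdk1) had too much data and 1 failed, and these stay out of sums. Columns of other samples numbered 0.

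The log2 of q2 over q1 FPKM was recomputed, since the deposited log2 column holds spreadsheet errors, with Python 3.11.15 and pandas 2.3.3. Its error is its size over the deposited statistic. Differences of log2 changes were tested with scipy 1.17.1 and Benjamini-Hochberg adjustment over all genes, after the step was tested on simulated data. Alternatives were other thresholds, scalings and sets of genes.

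Names came from RefSeq genes of assembly Zm-B73-REFERENCE-NAM-5.0. The rule for naming took the 5 highest means at +4, the 3 largest falls and rises at +4 among genes with a name, the largest and smallest changes of each role, genes with 1 call in all segments or opposite calls at -4 and +10, genes at the threshold and, of those without a name, 2 that rose and 2 that fell. ris2, trm1, shbp1 and some unnamed genes were added after their values were seen. Members and lists were chosen with earlier results of these data known.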

Additional observations from a re-analysis of the deposited data

Results flagged for a closer look

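The change differed between base and tip in 59 of the 85 genes, each with a log2 change that was more negative at +10 than at -4 past the test of the difference. Among genes called higher at -4 and lower at +10, the difference of log2 changes was -6.98 for cab-m1, -3.26 for glu2, -2.73 for GRMZM2G329047, -2.53 for lhcb6 and -2.30 for GRMZM2G001653. The labels do not say whether the segments came from the same plants.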

How the results depend on the processing

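No paired analysis was possible because the tables hold 1 pooled value a group and no replicate numbers, and for the same reason no replicate could be left out. Medians kept their sign in all 4 segments under a pseudocount of 1 FPKM, centring on all tested genes and both scalings to equal sums. With the same FPKM sum in both groups the median was -0.53 at +4 and -0.53 at +10, and with the same sum over genes outside the set, a choice added after the data were seen, -0.84 and -0.74. A change of at least 2-fold left 11.8% of the 85 called higher at -4, 45.9% lower at +4, 42.4% lower at +10, 1.18% higher at +4 and at +10, and 0% in either direction at -1. At an adjusted p under 0.01, 55.3% were higher at -4, 72.9% lower at +4 and 71.8% lower at +10. At that cut 1.18% were lower at -4, 0% higher and 1.18% lower at -1, and 2.35% higher at +4. With a mean of at least 2000 FPKM (50 genes), 78% were higher at -4, 90% lower at +4 and 92% lower at +10. Of the 50, 2% were lower at -4 and 2% higher at each of -1, +4 and +10. With at least 500 FPKM (177 genes), 63.3% were higher at -4, 68.9% lower at +4 and 63.3% lower at +10. For the 85 genes these shares were 68.2%, 82.4% and 80%. Of the 177, 2.26% were lower at -4, 4.52% higher and 3.95% lower at -1, 10.2% higher at +4 and 9.6% higher at +10. With 1000 FPKM in both groups (59 genes), 78% were higher at -4, 81.4% lower at +4 and 81.4% lower at +10. Of the 59, 1.69% were lower at -4, 0% lower at -1, 3.39% higher at +4 and 1.69% higher at +10. Within 0.3 of no change lay 8, 7 and 9 genes at -4, +4 and +10, and within 1 lay 72, 44 and 47. The cause of these shifts was not tested. Read depth is unknown, so no limit from counting can be given.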
